A study of Mus musculus with 2 samples.

Results

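The potassium channel subunits described here are the genes whose array name starts with Kcn, 85 gene names with 124 probes and 142 spots on each array, of 41174 probes that are not controls. Membership rests on the name and uses no measured value, although the family was picked with earlier results of these data known. The data are 2 two-colour Agilent whole mouse genome arrays of gastrocnemius (GAS) muscle from male mice aged 15 weeks on a normal diet, and each array set WT against skeletal muscle-specific *Gde5* (*Gpcpd1*) knockout RNA. The knockout mice (*Gde5* skKO) carried loxP sites around exon 11 of *Gde5* and the HSA-Cre transgene, whose Cre is driven by a human skeletal actin promoter, so only muscle fibres should have lost the gene. In other experiments of the study the control mice were *Gde5* flox/flox littermates without Cre, whereas the labels here call the control wild-type. Array 1 had WT RNA in Cy3 and *Gde5* skKO RNA in Cy5, and array 2 had the dyes exchanged. The design names 5 mice per genotype. The labels say neither whether RNA was pooled, nor whether both arrays held the same RNA, nor whether the mice were fasted or given glucose. The paper describes a microarray comparison after glucose injection and further data with fasting, but not which of these the 2 arrays hold. Neither source says whether the 2 arrays differ in condition. Each value therefore stands for 2 hybridizations and nothing was tested over mice.

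Potassium channels let potassium ions leave or enter the cell along their gradient and so set the resting potential of the muscle fibre and bring the membrane back to rest after each action potential. Inward rectifiers and two-pore channels carry the resting and leak currents, voltage-gated alpha subunits form the channels that open on depolarization, and calcium-activated channels open as calcium rises inside the cell. Auxiliary subunits bind these pores and change their opening, inactivation or delivery to the membrane. Some pore subunits, called silent, form no working channel alone and act by joining the subunits of another family.

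Each ratio below is on the log2 scale and turned to *Gde5* skKO over WT, so a value below 0 is lower in *Gde5* skKO muscle. A probe was measured when Feature Extraction, the software that processed the scanned images, marked it well above background in both channels of both arrays. By this rule 24 Kcn probes of 21 genes passed. That is 19.4% of the Kcn probes, against 41.2% of all probes. A measured probe was called higher or lower when its p-value was under 0.05 on both arrays with the same direction. The p-value, called the Feature Extraction p-value below, was computed from the software's ratio and its error. This p-value, and the error printed as ± after a ratio of 1 array, come from the software's error model and describe the spots of 1 hybridization, not the spread between mice. Signals are in arbitrary intensity units and compare genotypes at 1 probe, not different probes. Over all 16945 measured probes the median ratio was 0.0072 on array 1 and 0.025 on array 2. All 14 skeletal muscle marker genes, such as *Acta1*, *Ckm* and *Ryr1*, were measured and none was called in either direction. In this list, the other cell type lists and the list of channel partners, each measured gene stands for its brightest measured probe alone. Further probes of those genes are not reported, so a gene not called means that probe only. Of the 4 *Gpcpd1* probes, listed under the older name *Prei4*, 3 had ratios between -3.29 and -2.59 on both arrays, and the fourth had -0.05 on array 1 and -0.47 on array 2.

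**Figure D1:**
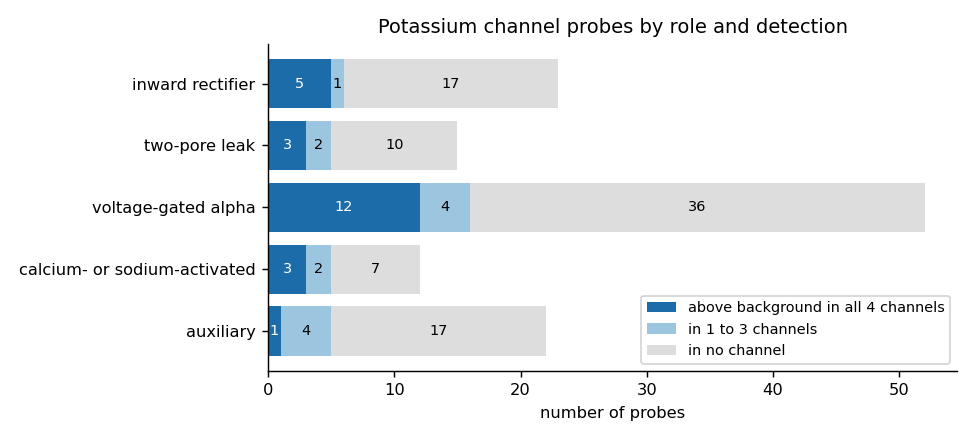
Number of Kcn probes (horizontal axis) in each role group, split by how many of the 4 channels of the 2 arrays were well above background. In every group most probes were above background in no channel, and the voltage-gated alpha subunits held 12 of the 24 measured probes.

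No Kcn probe was called higher and 1 was called lower, the probe of *Kcnab1*. Among all measured probes, 1.56% were called higher and 1.66% lower, and 1 of 24 is 4.17%, a share that rests on 1 probe. The *Kcnk1* probe passed on both arrays too, but in opposite directions after turning, so that the same dye was the brighter on both, and 0.478% of all measured probes did so. The median of the mean ratios was 0.024 for the Kcn probes, against 0.017 over all measured probes. Of the 24 Kcn probes, 8 were above 0 on both arrays, 7 were below 0 on both and 9 had opposite directions. Among all measured probes 56.6% had the same direction on both arrays and 43.4% had opposite directions. The 2 signals of *Gde5* skKO lay above both WT signals at 4 Kcn probes and below both at 7, while at 13 the genotypes overlapped. Over all measured probes the shares were 22.1% above and 17.8% below.

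**Figure D2:**
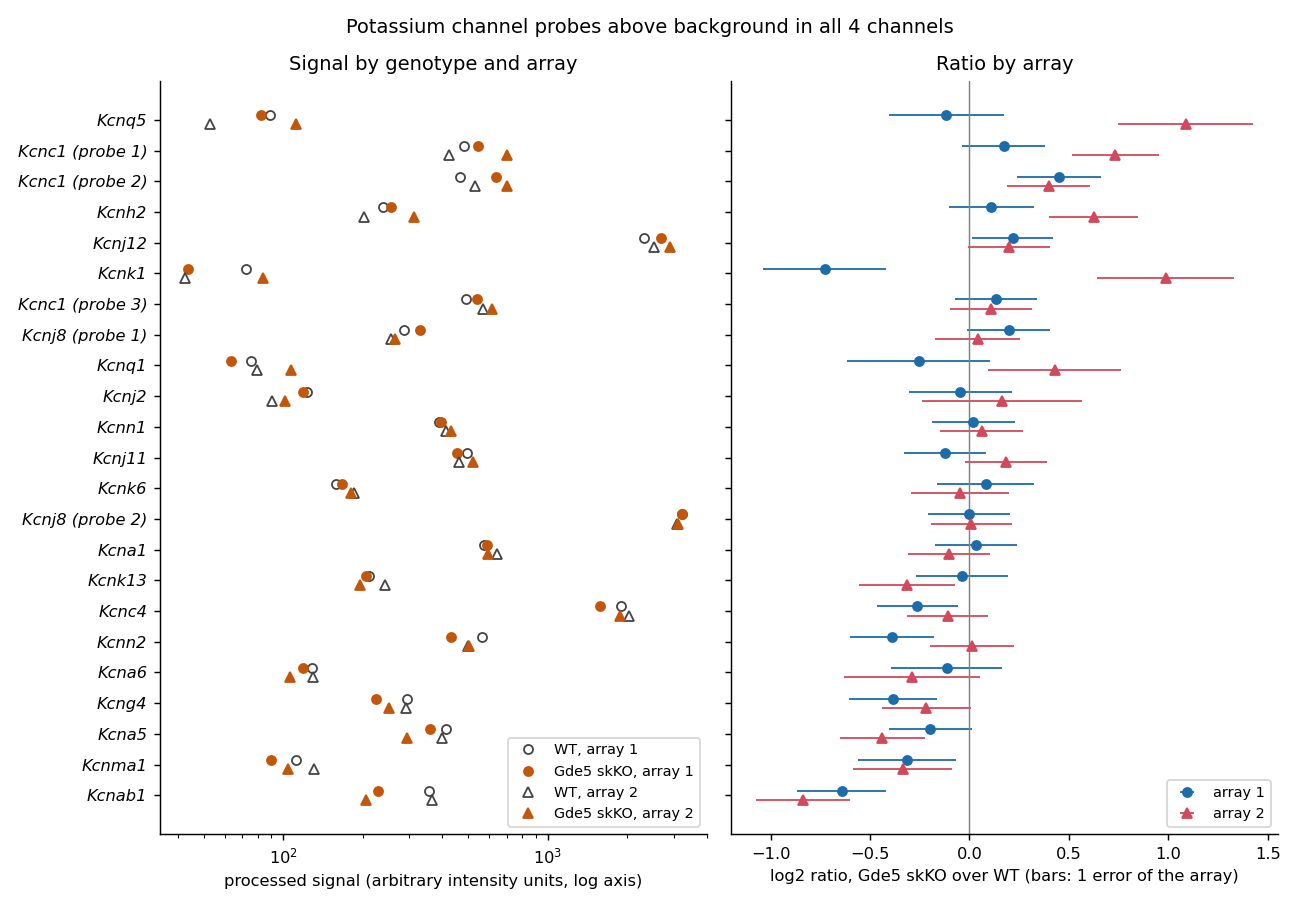
Left, processed signal of 23 of the 24 measured Kcn probes in each genotype and array, on a log axis. Right, log2 ratio of Gde5 skKO over WT on each array, with bars of 1 error from the Feature Extraction error model. Probes are ordered by mean ratio. Kcnab1 lies lowest at -0.64 and -0.84, while Kcnk1 and Kcnq5 have their arrays on opposite sides of 0.

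Among the inward rectifiers, 5 of 23 probes and 4 of 14 genes were measured, and their mean ratios lay between 0.00 and 0.21. *Kcnj2* and *Kcnj12* encode Kir2.1 and Kir2.2, which hold the muscle fibre near its resting potential. The *Kcnj12* probe (mm8, chr11:60886778-60886836) had WT signals of 2312 on array 1 and 2522 on array 2, and *Gde5* skKO signals of 2688 and 2894. Both *Gde5* skKO signals were above both WT signals, with ratios of 0.22 ± 0.21 and 0.20 ± 0.20, but neither passed. *Kcnj2* had ratios of -0.05 ± 0.26 and 0.16 ± 0.40, with directions that differed between the arrays.

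*Kcnj11* encodes Kir6.2 and *Kcnj8* encodes Kir6.1, the pores of ATP-sensitive potassium channels, which open when the energy state of the cell falls. Kir6.2 is known as the pore of the muscle fibre channel and Kir6.1 as that of vascular smooth muscle. *Kcnj11* had WT signals of 494 and 460 and *Gde5* skKO signals of 453 and 522, so the genotypes overlapped and the ratios were -0.12 ± 0.21 and 0.18 ± 0.21. The *Kcnj8* probe at chr6:142522706-142522765 gave 3227 and 3094 in WT and 3221 and 3114 in *Gde5* skKO muscle. Its ratios were 0.00 and 0.01. The 95% interval of its mean, which covers the error within arrays only, ran from 0.824 to 1.22 times the WT level. The second *Kcnj8* probe, at chr6:142522189-142522248, had ratios of 0.20 and 0.04. The sulfonylurea receptors that complete these channels, *Abcc8* and *Abcc9*, had ratios of 0.26 and 0.11, and of -0.13 and 0.07, and neither was called.

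*Kcnj6*, a subunit of the channels that G proteins open, had a probe printed in 10 spots on each array, none of them well above background in either channel among those used. On array 1 the 8 usable spots averaged -0.67 ± 0.71 (SD) and 7 were below 0. On array 2 the 9 usable spots averaged 0.93 ± 0.45 (SD) and all were above 0. The Cy3 channel was therefore the brighter on both arrays whichever genotype it held.

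Of the two-pore leak channels, 3 of 15 probes were measured, those of *Kcnk1*, *Kcnk6* and *Kcnk13*. *Kcnk1* encodes TWIK-1, a weak leak channel. In WT muscle its signals were 72.6 and then 42.5 on array 2, and in *Gde5* skKO muscle they were 43.8 and 84.1. The signal in the Cy3 channel was the higher on both arrays, so the ratios of -0.73 ± 0.31 and 0.99 ± 0.34 opposed each other although each passed on its own array. The SD between arrays was 1.21, the largest of the 24 probes, and the median over them was 0.12. *Kcnk6*, which encodes TWIK-2, had ratios of 0.08 and -0.05. *Kcnk13*, which encodes THIK-1, had -0.04 and -0.31, and neither probe was called. *Kcnk5*, whose product TASK-2 is among the two-pore channels described in muscle, had 2 probes, neither of which rose well above background.

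**Figure D3:**
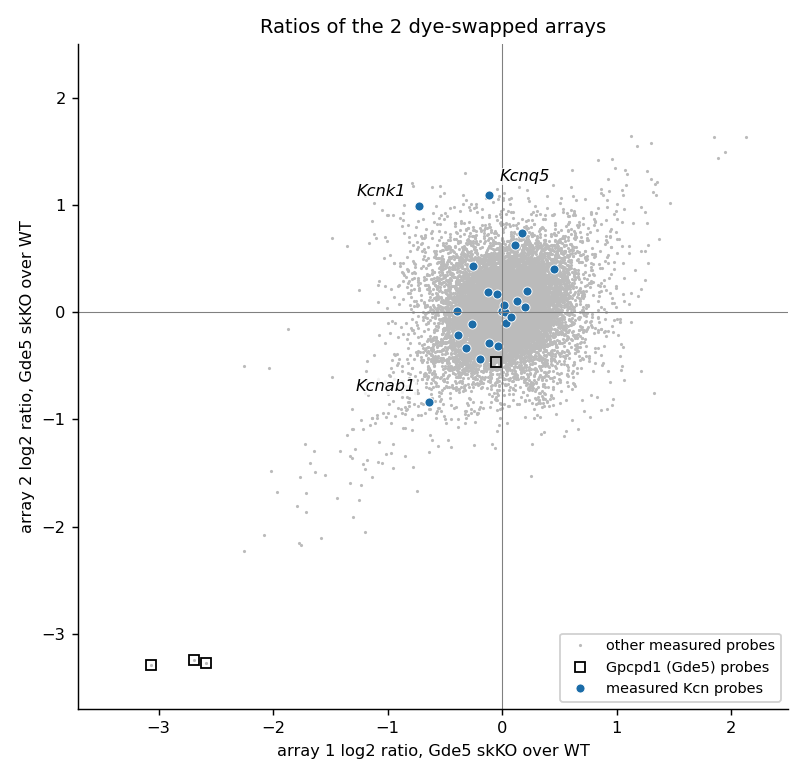
Log2 ratio of Gde5 skKO over WT on array 1 (horizontal) and array 2 (vertical) for all measured probes in grey, the 24 measured Kcn probes in blue and the Gpcpd1 probes as squares. Kcnab1 lies in the quadrant that is lower on both arrays, and Kcnk1 lies in the quadrant of opposite directions.

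The voltage-gated alpha subunits were the largest group, with 52 probes of 36 genes, of which 12 probes of 10 genes were measured. None was called, and their median mean ratio was 0.05. *Kcnc1*, which encodes Kv3.1, a channel known for fast closing that allows rapid firing, was the gene with 3 measured probes. The probe at chr7:46306384-46306443 had WT signals of 468 and 532 and *Gde5* skKO signals of 639 and 701, with ratios of 0.45 ± 0.21, which passed, and 0.40 ± 0.21, which did not. The probe at chr7:46300897-46300956 had WT signals of 483 and 424 and *Gde5* skKO signals of 544 and 704, with ratios of 0.17 ± 0.21 and 0.73 ± 0.22, of which the second passed. The probe at chr7:46295439-46295498 had ratios of 0.13 ± 0.21 and 0.11 ± 0.21, and neither passed.

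All 3 *Kcnc1* probes were thus brighter in *Gde5* skKO muscle on both arrays, and the first 2 did not overlap between genotypes. Their mean over the 3 probes was 0.25 on array 1 and 0.41 on array 2, but the probes belong to 1 gene and share the same RNA. None passed on both arrays. With normexp background correction and loess in limma, the first 2 had means of 0.25 and 0.32 and passed its moderated test at an unadjusted p-value under 0.05, the only Kcn probes called higher by it. By that rule 4.49% of all measured probes were called higher and 4.44% lower. After Benjamini-Hochberg adjustment over all measured probes, limma's p-values for them were 0.466 and 0.361.

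*Kcnc4* encodes Kv3.4, described in muscle together with the auxiliary subunit of *Kcne3*. Its probe had WT signals of 1886 and 2021 and *Gde5* skKO signals of 1573 and 1874, so *Gde5* skKO was dimmer on both arrays, with ratios of -0.26 ± 0.21 and -0.11 ± 0.20 that did not pass.

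The 3 measured Kv1 subunits had mean ratios below 0, and none was called. *Kcna1* had ratios of 0.03 and -0.10 and *Kcna6* had -0.11 and -0.29. *Kcna5*, which encodes Kv1.5, had WT signals of 411 and 398 and *Gde5* skKO signals of 359 and 294. Both *Gde5* skKO signals were below both WT signals, but the ratio of -0.20 ± 0.21 on array 1 did not pass while that of -0.44 ± 0.21 on array 2 did. *Kcng4*, which encodes a silent subunit, had WT signals of 293 and 292 and *Gde5* skKO signals of 224 and 252, with ratios of -0.38 ± 0.22 and -0.22 ± 0.22, and was not called.

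*Kcnq5* and *Kcnh2* had high mean ratios that rested on array 2. *Kcnq5*, of the Kv7 family that carries slowly opening currents, had WT signals of 89.5 and 52.8 and *Gde5* skKO signals of 82.6 and 112. Its ratio was -0.12 ± 0.29 on array 1 and 1.09 ± 0.34 on array 2, so the mean of 0.49, the highest of the 24, had opposite directions behind it. No channel of the second *Kcnq5* probe was well above background. *Kcnh2*, which encodes the ERG1 channel, had ratios of 0.11 ± 0.21 and 0.63 ± 0.22, of which only the second passed. *Kcnq1*, another Kv7 gene, had -0.26 ± 0.36 and 0.43 ± 0.33. With normexp and loess the means of *Kcnq5* and *Kcnh2* were both 0.12.

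*Kcnf1*, a silent Kv subunit, missed the measured set because the *Gde5* skKO channel of array 2 was not well above background. Its WT signals were 74.2 and 77.6 and its *Gde5* skKO signals 45.0 and 35.0, with ratios of -0.72 ± 0.31 and -1.15 ± 0.37, which both passed. The ratio of array 2 therefore sets WT against a channel at background and has no settled size. Where 1 channel above background on each array was enough, the probe counted as lower, beside 1.58% of all probes kept by that rule, but on array 2 it was kept through its brighter WT channel alone, so nothing rests on that count. With normexp and loess its mean was -0.21 in place of -0.93. No channel of the second *Kcnf1* probe was well above background. *Kcns3*, another silent subunit with 3 channels above background, had opposite ratios of -1.06 ± 0.39 and 0.40 ± 0.44.

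Of the calcium- or sodium-activated channels, 3 of 12 probes were measured and none was called. *Kcnma1* encodes the pore of the large-conductance BK channel. Its WT signals were 112 and 131 and its *Gde5* skKO signals 89.9 and 104. *Gde5* skKO was dimmer on both arrays, with ratios of -0.31 ± 0.25 and -0.34 ± 0.25 that lay close together (SD of 0.02), but neither passed. Among 20 genes of potassium channel partners and other cation channels, 14 were measured, 0 were called higher and 1 lower, and their median mean ratio was -0.15. That gene was *Lrrc38*, whose product is a gamma subunit of BK channels. Its WT signals were 1747 and 1934 and its *Gde5* skKO signals 1293 and 1447, with ratios of -0.43 and -0.42 that both passed at 0.05 and neither at 0.01. Against the 1.66% of all measured probes called lower, 1 of 14 genes rests on this probe alone. Its mean with normexp and loess was -0.36. *Lrrc26*, *Lrrc52* and *Lrrc55*, the other members of that family on the list, were not measured.

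*Kcnn1* and *Kcnn2* encode the small-conductance channels SK1 and SK2. *Kcnn1* had WT signals of 389 and 414 and *Gde5* skKO signals of 395 and 432, with ratios of 0.02 and 0.06. One *Kcnn2* probe was printed in 10 spots on each array. On array 1 the 7 usable spots lay between -0.51 and -0.25, with a mean of -0.39 ± 0.09 (SD), and on array 2 the 8 usable spots lay between -0.17 and 0.24, with a mean of 0.01 ± 0.14 (SD). The usable spots of the arrays did not overlap. With the spots left out for outlier marks they did, since array 1 then reached 0.16. *Kcnn3*, the SK subunit known to rise in denervated muscle, was not detected above background.

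**Figure D4:**
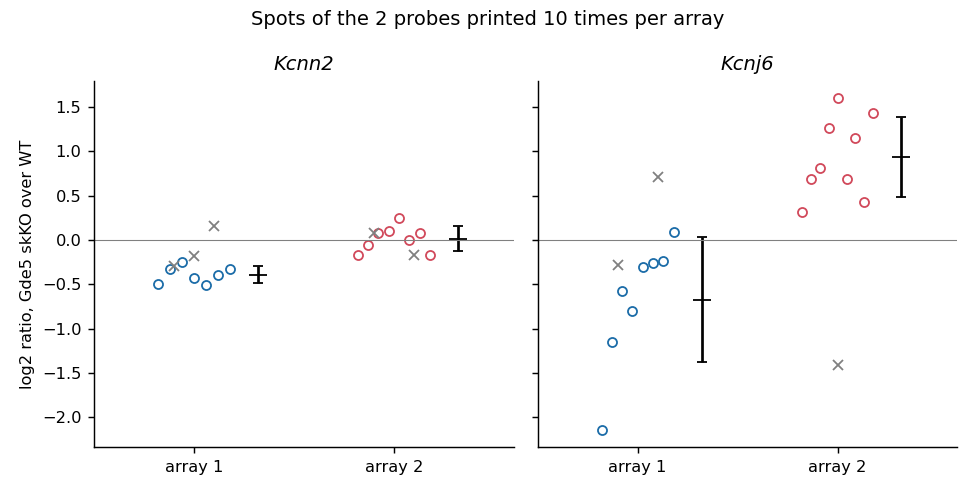
Log2 ratio of Gde5 skKO over WT at each spot of the Kcnn2 and Kcnj6 probes that were printed 10 times per array. Circles are spots used, crosses are spots left out for outlier marks, and bars are the mean and SD of the spots used. The array means were -0.39 and 0.01 for Kcnn2, and -0.67 and 0.93 for Kcnj6, whose spots were not well above background.

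The auxiliary subunits had 22 probes of 16 genes, of which a single probe was measured, that of *Kcnab1*. *Kcnab1* encodes the beta subunit Kvbeta1, which binds Kv1 channels and gives them fast inactivation. The probe at chr3:65466011-65466070 had WT signals of 355 and 366 and *Gde5* skKO signals of 227 and 205. Both *Gde5* skKO signals were below both WT signals, with ratios of -0.64 ± 0.22 on array 1 and -0.84 ± 0.24 on array 2 that both passed. The mean of -0.74 ± 0.14 (SD of 2 arrays) was 0.599 times the WT level, with a 95% interval from 0.48 to 0.747 that covers the error within arrays only. The call was lost when Feature Extraction p-values were adjusted over all measured probes of each array, since array 1 then failed (adjusted p = 0.14) and array 2 passed (adjusted p = 0.0254). With normexp and loess, where an offset of 50 is added to both channels, the mean was -0.36, which passed limma's moderated test before but not after adjustment (adjusted p = 0.252).

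The second *Kcnab1* probe, which the array annotation places over chr3:65390118-65407372, was at background in all 4 channels and has no usable ratio, so the call rests on 1 of 2 probes of the gene. *Kcnab2* and *Kcnab3*, the other beta subunit genes, stayed at background too. Markers of adipocytes moved in the same direction as *Kcnab1*: of 8 genes on that list 6 were measured and 5 were called lower, *Adipoq*, *Plin1*, *Cfd*, *Retn* and *Cidec*, with a median mean ratio of -0.77 over the 6. Over all measured probes 1.66% were called lower. The measured gene of the list that was not called was *Fabp4*, with ratios of 0.13 and -0.02. The summed signal of the list was 43794 and 45092 in WT and 43251 and 41164 in *Gde5* skKO muscle, of which *Fabp4* gave 35638 and 37187 in WT and 38867 and 36769 in *Gde5* skKO. *Cfd*, one of the 5 called, fell from 5937 to 3211 on array 1 and from 5715 to 3048 on array 2. *Lep* and *Adrb3* were not well above background. Whether fat cells contributed to the *Kcnab1* signal was not tested, and in bulk RNA fewer cells of a type and less RNA per cell cannot be told apart. Of 12 nerve and Schwann cell markers 4 were measured and none was called. All 10 smooth muscle and pericyte markers and all 9 endothelial markers were measured and none was called. Among 11 leukocyte markers 7 were measured, none was called and the median mean ratio was -0.11. The brain list had 3 of 7 genes measured, *Camk2a* called lower and a median of -0.36. The liver list had 5 of 8 genes on the array measured, *Mup1* called lower, *Apoh* called higher and a median of -0.63.

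The genes of the BK beta subunits and of the Kcne family gave no measured probe. The *Kcne4* probe, 1 *Kcne3* probe and the second *Kcnn2* probe were well above background in the Cy5 channel of both arrays. In Cy3 they were so on neither array. The Cy5 channel held *Gde5* skKO RNA on array 1 and WT RNA on array 2, so these 3 probes give no direction. No channel of the other *Kcne3* probe was well above background. Of the 13 Kcn probes above background in 1 to 3 channels, 9 were so in Cy5 alone, and 0 were above background in 1 genotype on both arrays and in the other on neither. The remaining 87 Kcn probes had no channel well above background, and 52 of the 85 genes had only such probes. They included all 4 genes of the Kcnip family, and *Kcnd1*, *Kcnd2* and *Kcnd3*, whose Kv4 channels Kcnip proteins bind. *Kcnmb1* was among them too.

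*Kcnmb4*, a BK beta subunit, was above background in 1 channel, WT on array 2. Its WT signals were 39.2 and 192 and its *Gde5* skKO signals 43.7 and 72.0, so it gives no usable ratio. Its spot lies in a corner that holds 2987 of the 43379 spots of an array, and on array 2 62.7% of those spots were well above background in Cy5 against 46.3% on its remaining surface. On array 1 the shares were 47.0% in the corner and 53.7% elsewhere. Of the 142 Kcn spots 11 lie there, among them those of *Kcnu1* and *Kcnj3*, which were not measured. The *Kcnab1* and *Kcnf1* spots lie outside the corner, so leaving it out could not change their ratios, and the Kcn median stayed at 0.024.

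**Figure D5:**
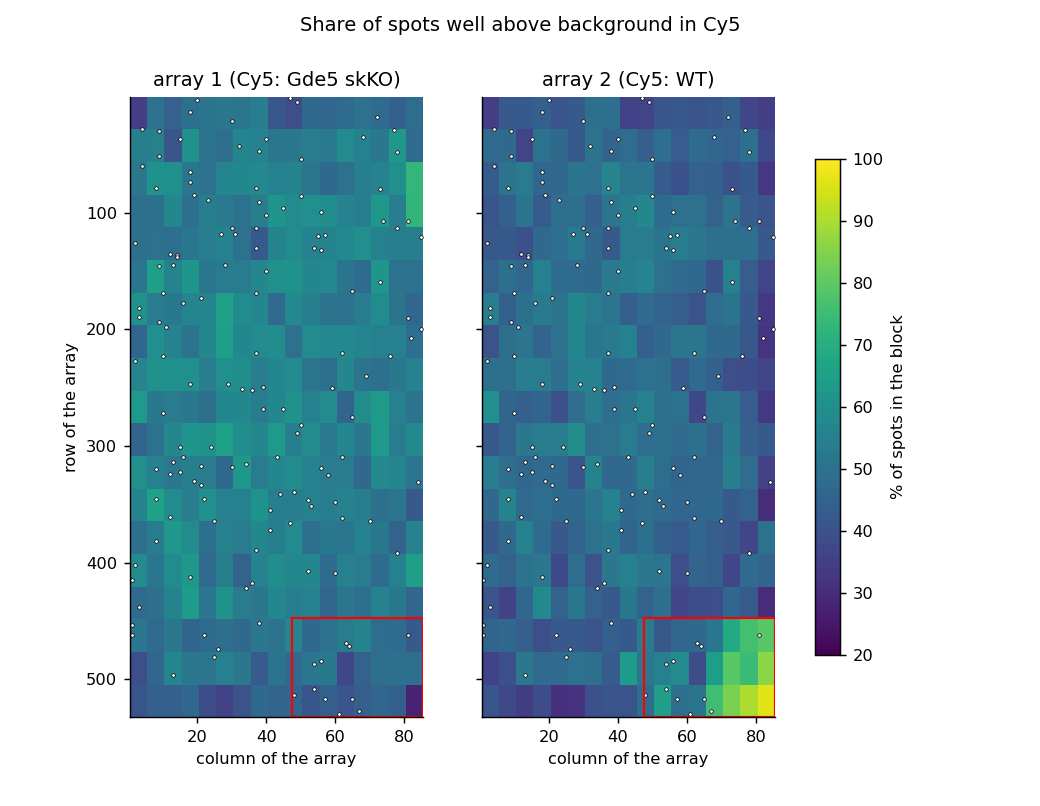
Share of spots well above background in the Cy5 channel, in blocks of the array surface (rows and columns of spots) for array 1 and array 2, with the Kcn spots as white points. The red outline marks the corner, where the share was 62.7% on array 2 and 47.0% on array 1.

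Of 17 genes chosen for potassium channels described in skeletal muscle, 16 were on the array by name and 10 were measured, with 13 probes. Their median mean ratio was 0.06, with 0 probes called higher and 1 lower. The remaining gene, *Kcna7*, was not analysed here. The errors of the 24 measured Kcn probes let a ratio pass on both arrays only from 0.40 in size at the most precise probe and 0.79 at the least precise, with a median of 0.42. For 15 of the 24 probes the 95% interval of the mean stayed within a 1.5-fold change in either direction. That interval covers the error within arrays only. Among the 15 are *Kcnk1*, *Kcnq1*, *Kcnj2*, *Kcnj11*, *Kcnk6*, *Kcna1*, *Kcnn2* and 1 *Kcnj8* probe, whose arrays lay on opposite sides of 0. Since the interval leaves out the spread between arrays and between mice, it sets no bound on the change of any of the 15. Differences smaller than the errors of the probes allow were not detectable with 2 arrays.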

How the data were processed

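The authors hybridized 2 dye-swapped Agilent 44K arrays and ran Feature Extraction, version 9.5 per the labels and 9.5.3.1 per the file headers. In the deposited files every spot has a log10 ratio, Cy5 over Cy3, that the software had corrected for background and dye, with its error. A p-value from the error model stands beside it in the authors' files, as does the deposited intensity of each channel and its local background. Each deposited series column repeats the log10 ratio, not turned.

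From these, log2 ratios of *Gde5* skKO over WT were formed, and spots sharing a probe were averaged. Spots with outlier marks (164 on array 1, 200 on array 2) or with a local background more than 2 times their signal (11 and 0) were left out, which removed 5 and 3 Kcn spots. No Kcn spot was saturated. P-values of all probes were recomputed from the deposited ratios and errors with a normal distribution. For a probe with several spots the error was the root mean square of the spots' errors, which averaging did not reduce. Of the 124 Kcn probes, 106 carried an accession that RefSeq (GRCm38.p6 table) pairs with the same symbol and 0 with another. Coordinates are those of the array on mm8. Both arrays lie on 1 slide and came from 1 scan, so neither could be a block.

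Named were all called Kcn probes, the 5 highest and 5 lowest means, the 10 brightest probes, a list of muscle channels, partly detected probes and the *Gpcpd1* probes. Members and lists were chosen with earlier results of these data known. Alternatives were normexp (offset 50) with loess in limma 3.58.1 under R 4.3.3 and its moderated test, no background correction, other filters and thresholds, the methods' t-test on channel values, and each array alone. Scripts ran under Python 3.11.15 with pandas 2.3.3, numpy 2.4.6, matplotlib 3.10.9 and scipy 1.17.1. The number of arrays limits the precision, and p-values measure only the error within an array. Results of some named genes are not reported here.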

Additional observations from a re-analysis of the deposited data

How the results depend on the processing

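The call of *Kcnab1* as lower kept its direction under every alternative run. It passed with the ratios of the series table, with normexp and loess, without background correction, with a p-value under 0.01, by limma and the methods' t-test before adjustment, and where a mean fold of 1.5 was also required. Keeping outlier spots, or leaving out the corner of array 2, an alternative chosen after the data were seen, did not touch its spot. The Feature Extraction p-value was kept with other ratios, so that only the direction could change there. The t-test was unpaired, so it ignored that genotypes share an array, and it took channels that may hold the same RNA as independent. With Benjamini-Hochberg adjustment of the Feature Extraction p-values, of limma or of the methods' t-test, 0 Kcn probes were called lower. Its mean ratio was -0.74, and -0.36 with normexp and loess, -0.40 without background correction, and -0.84 and -0.64 on either array alone. The count called lower was 2 where 1 channel above background sufficed or no filter was set. The addition was *Kcnf1*, which lacked a *Gde5* skKO signal above background on array 2, so the larger count supports nothing. The count called higher was 0 in most alternatives and 2 by limma before adjustment, both *Kcnc1* probes. Leaving out 1 array gave 1 to 4 Kcn probes called higher and 2 called lower in both cases. *Kcnab1* was the only probe called in 1 direction by both, which the main call had fixed beforehand, since it requires the same of each array. Without replicate 1, *Kcnh2*, *Kcnq5*, *Kcnk1* and a *Kcnc1* probe were higher and *Kcna5* joined *Kcnab1*. Without replicate 2, another *Kcnc1* probe was higher and *Kcnk1* joined *Kcnab1*. The median ratio of the Kcn probes was 0.024, ranged from -0.042 without replicate 2 to 0.028 without replicate 1, and lay between 0 and 0.024 otherwise. The dye direction count, its alternatives also chosen afterwards, was 2 with no filter, when *Kcnmb3* joined *Kcnk1*, and 1 otherwise. Slide and scan could not be blocked. Every ratio already pairs the genotypes within 1 array. The labels number arrays and not mice, so pairing by mouse could not be tried.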
